A study of Rattus norvegicus and Ovis aries with 113 samples.

Results

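The nuclear genes for the subunits of the respiratory chain were followed through brain, sperm and ovary of sheep and rats. They were chosen by symbol. Taken were the symbols that begin, in capitals, with NDUFA, NDUFB, NDUFC, NDUFS, NDUFV, UQCR, ATP5 or COX with a number from 4 to 8, together with SDHA, SDHB, SDHC and SDHD. Assembly factors (NDUFAF and SDHAF) and entries marked as pseudogenes were left out. The rule found 111 of the 38675 genes in the rat tables and 62 of the 31304 genes in the sheep tables, and all 62 sheep symbols also occurred in the rat. In the rat 46 belong to complex I, 4 to complex II, 11 to complex III, 23 to complex IV and 27 to complex V, and in the sheep 37, 4, 1, 3 and 17. Complexes III and IV were represented in the sheep by UQCRH, COX5A, NDUFA4 and NDUFA4L2, and other sheep subunits of these complexes were not analysed here, so the isoforms of cytochrome oxidase could be compared in the rat only.

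The respiratory chain lies in the inner mitochondrial membrane. Complex I (NADH dehydrogenase) and complex II (succinate dehydrogenase) pass electrons to ubiquinone, complex III hands them to cytochrome c, and complex IV (cytochrome c oxidase) gives them to oxygen. Complexes I, III and IV pump protons, and complex V (ATP synthase) lets them flow back to make ATP. A few subunits are encoded in mitochondrial DNA and all others in the nucleus, and several nuclear subunits of complex IV exist as a ubiquitous form and a form limited to certain tissues. COX6B2, COX7B2 and COX8C are known as testis forms, COX6A2, COX7A1 and COX8B as heart and skeletal muscle forms, and COX4I2 as a lung form linked to low oxygen. Sperm carry their mitochondria in the midpiece.

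The study asks which genes join neurological and reproductive functions in mammals. It used 5 male sheep past puberty, 15 male Sprague Dawley rats past puberty and 14 female Sprague Dawley rats, an outbred albino strain, and no animal had been given a treatment. Each sheep, numbered 687, 688, 690, 694 or 699, gave sperm and 10 pieces of the same brain hemisphere: basal ganglia (BG), cerebellum (CB), entorhinal (EC), frontal (FC), motor (MC), prefrontal (PC), posterior parietal (PPC) and visual (VC) cortex, hippocampus (HC) and pons. Male rats gave the whole brain and seminal fluid, from which the libraries labelled sperm come, and female rats gave the whole brain and the ovaries. The 113 libraries were sequenced as stranded messenger RNA, with different extraction and library kits for the species, so species and kit cannot be told apart.

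Library totals ran from 38164144 to 119206015 counts in rat brain, from 50485490 to 60265909 in ovary, from 13714087 to 65107730 in rat sperm, from 46697655 to 72403425 in sheep brain and from 13698889 to 65146176 in sheep sperm. Counts on ribosomal RNA genes made up 94.8% of the brain library of female 1 and 89.2% of that of male 4, against medians of 13.1% and 3.63%. Rat sperm libraries 16 and 17 held 196 and 161 genes with a single count, against a median of 1433, and library 7 held 215. The brain labels fitted their markers, since all 10 neuronal, 8 astrocyte and 8 oligodendrocyte genes tested were lower in rat sperm and in ovary, except for 2 astrocyte genes that were higher in ovary. In sheep sperm 7 of 8 neuronal genes and all 8 genes of either glial list were lower. Ovary exceeded brain in every tested gene of its own cells, 8 of granulosa, 7 of oocytes and 6 of theca and luteal cells.

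Levels are given as CPM (counts per 1e6 counts of the library) after scaling by the trimmed mean of M values (TMM) and take no account of transcript length. A level can thus be compared between samples for 1 gene but not between genes. A gene was called higher or lower at a Benjamini-Hochberg adjusted p below 0.05 over all genes and a change of 1 or more on the log2 scale, with the quasi-likelihood test of edgeR. In tissue samples, fewer cells of a type and less RNA per cell cannot be told apart. The subunit genes as a whole took similar mean shares of the counts in the rat tissues. They took 0.945 to 1.58% of the counts in sperm and 1.26 to 1.47% in ovary. Male brain ran from 0.238 to 1.66% with a mean of 1.27%, and female brain from 0.0885 to 2.01% with a mean of 1.14%. In sheep they took 0.331 to 0.643% in brain and 0.0118 to 0.0467% in sperm, which did not overlap. After TMM scaling their sum was 8250 to 17200 CPM in rat sperm, with a median of 12300. Male rat brain ran from 9590 to 19000 CPM, with a median of 10800. The smallest TMM factor of male brain lay far below the median factor of 1.25. In female brain the smallest was 0.069, against a median of 1.1. The highest levels in rat brain, and overlaps judged against them, may thus rest on a library that was scaled up. In sheep the sum was 575 to 1650 CPM in sperm against 2720 to 5960 CPM in brain.

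In rat sperm the testis forms of complex IV were present in a minority of libraries at high level, and Cox8a, a ubiquitous form, was lowest in those same libraries. The stretches of 250 bases that precede the annotated gene starts of the testis forms are shown here with those of Cox8a, the ubiquitous partner of Cox8c, and of Ndufa11, an accessory subunit of complex I chosen after its matches were seen. They come from the RefSeq annotation of GRCr8 at chr6:127793129-127793378 (plus strand), chr14:37046831-37047080 (plus), chr1:78122621-78122870 (plus), chr1:213833624-213833873 (minus) and chr9:1637364-1637613 (plus), and run 5′ to 3′ on the strand of the gene. Capitals mark exact matches to the core of the nuclear respiratory factor 1 motif (NRF1, GCGCATGCG) or of the GA-binding protein motif (GABPA, CCGGAAG, here as its reverse complement).
Cox8c: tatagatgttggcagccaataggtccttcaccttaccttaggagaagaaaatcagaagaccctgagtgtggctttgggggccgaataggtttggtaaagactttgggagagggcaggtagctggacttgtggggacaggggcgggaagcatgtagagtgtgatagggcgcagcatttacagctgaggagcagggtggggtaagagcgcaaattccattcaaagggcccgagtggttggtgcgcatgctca
Cox7b2: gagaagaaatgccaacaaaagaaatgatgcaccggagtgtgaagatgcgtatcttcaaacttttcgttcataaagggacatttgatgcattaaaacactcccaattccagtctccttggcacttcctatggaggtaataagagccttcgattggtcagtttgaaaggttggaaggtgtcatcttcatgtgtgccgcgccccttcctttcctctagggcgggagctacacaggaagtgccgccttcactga
Cox6b2: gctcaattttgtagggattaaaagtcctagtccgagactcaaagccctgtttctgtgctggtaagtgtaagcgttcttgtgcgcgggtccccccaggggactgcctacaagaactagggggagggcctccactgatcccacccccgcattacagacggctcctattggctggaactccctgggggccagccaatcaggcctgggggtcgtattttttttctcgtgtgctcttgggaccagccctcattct
Cox8a: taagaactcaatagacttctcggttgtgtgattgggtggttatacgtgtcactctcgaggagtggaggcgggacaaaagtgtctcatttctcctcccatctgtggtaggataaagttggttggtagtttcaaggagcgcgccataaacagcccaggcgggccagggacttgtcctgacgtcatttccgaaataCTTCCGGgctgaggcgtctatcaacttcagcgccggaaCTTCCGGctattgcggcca
Ndufa11: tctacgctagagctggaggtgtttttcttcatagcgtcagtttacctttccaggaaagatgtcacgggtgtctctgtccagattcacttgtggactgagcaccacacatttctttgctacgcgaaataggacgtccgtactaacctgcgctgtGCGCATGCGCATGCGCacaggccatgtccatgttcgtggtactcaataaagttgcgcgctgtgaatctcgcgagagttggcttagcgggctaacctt

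Both factors are known regulators of nuclear genes for mitochondrial proteins, as is YY1, whose core AAGATGGCG was searched too. The search covered both strands, and for each gene 300 bases, from 250 before to 50 after the gene start. Cox8a held GABPA matches that begin 57 and 19 bases before the gene start. Ndufa11 held NRF1 matches that begin 97 and 91 bases before it, and because that motif nearly reads the same on the other strand, each was matched there too, 1 base further on. None of the 7 tissue-limited isoforms with a promoter in the table held an exact match to any of the 3 motifs. Of the 95 rat members with a promoter in the table, 71 were expressed at 10 CPM or more in a group and not tissue-limited. Among these, 29.6% (21) held GABPA, 14.1% (10) held YY1 and 8.45% (6) held NRF1, against 8.75%, 1.73% and 1.52% of all 33469 promoters. At least 1 of the motifs stood in 43.7% (31) of them and in 11.3% of all promoters, and their mean content of G and C was 56.4% against 52.7%. With 1 mismatch allowed, NRF1 stood in 40.8% of them, in 8.92% of all promoters and in 1 of the 7 tissue-limited forms. A match is a description of the letters and does not show that a factor binds there.

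Cox8c, on chromosome 6 from 127793379 to 127794702, was at 196, 596, 50.1 and 618 CPM in the sperm of rats 3, 7, 13 and 14 and at 0 to 11.3 CPM in the other sperm libraries, with a median over all 15 of 4.71. Male brain reached 0.0636 CPM at most, from 8 counts in all, female brain 0.0188 and ovary 0.25. Of the 15 sperm libraries 13 lay above every male brain. Cox7b2 (chromosome 14, 37047081 to 37159288) followed the same order, with 65.8, 171, 18.6 and 223 CPM in rats 3, 7, 13 and 14 and 0 to 4.62 CPM elsewhere in sperm. Its median was 0.744 CPM, male brain reached 0.235 CPM and ovary 0.0159. In this case 8 sperm libraries exceeded the brain and 5 had no count. Both genes fell below the low-count filter of the comparison with brain. Tested without that filter, Cox8c had a log2 fold change of 13.3 and Cox7b2 of 9.24 (edgeR adjusted p 6.82e-08 and 3.02e-06), fitted values that depend on the small count added to brain libraries without a read.

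Cox6b2 (chromosome 1, 78122871 to 78124096) was at 104, 340, 21.9 and 356 CPM in the same 4 libraries, and at 0 to 12.5 CPM in the other 11, with a median of 6.52. Male brain ran from 1.14 through a median of 1.57 to 3.21 CPM. Sperm was higher than every brain in 9 libraries and lower than every brain in 3, so the groups overlapped. The log2 fold change over male brain was 5.39 ± 0.97 (SE, edgeR adjusted p 9.37e-06). It rested on rats 3, 7 and 14, without which it was 1.95 (adjusted p 0.00112). With the animal as a block, since each male gave both samples, it was 1.95 and missed the threshold (adjusted p 0.067). Limma voom with quality weights gave 0.999 (adjusted p 0.047), just under the size a call needs.

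The ubiquitous partners did not follow that order. Cox8a was at 189, 76.4, 220 and 47.0 CPM in rats 3, 7, 13 and 14 and at 233 to 366 CPM in the other 11 sperm libraries, with male brain at 137, 168 and 266 (lowest, median and highest). Cox7b was at 64.1, 37.1, 80.2 and 13.0 CPM in the 4, against a sperm median of 95.3 and 96.0, 130 and 265 in brain. Cox6b1 was at 127, 91.7, 136 and 40.7 CPM, against a sperm median of 160 and 130, 159 and 304 in brain. Rat 14 was lowest and rat 7 next lowest for each of the 3 genes, and rats 3 and 13 came next for Cox8a only. Over all libraries none of the 8 ubiquitous forms was called in sperm against brain, and their log2 fold changes ran from -0.59 (Cox7b) to 0.61 (Cox8a). Cox8a overlaps Macrod1 in the annotation, and the strand setting of the counting is not given, so its reads may include those of its neighbour.

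A ratio within a library does not depend on the scaling. Counts of Cox8c made up 1.30% of the counts of Cox8c and Cox8a in the median sperm library and 92.9% in the highest, and at most 0.0464% in male brain. For Cox7b2 with Cox7b the median was 0.941% and the highest 94.5%, against at most 0.106% in male brain. For Cox6b2 with Cox6b1 it was 3.32% and 89.7%, against 0.689 to 1.32%. These are shares of reads and not of molecules, since the transcripts differ in length. The sperm library with the highest share had more reads of the testis form than of the ubiquitous one in every one of these pairs.

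**Figure D1:**
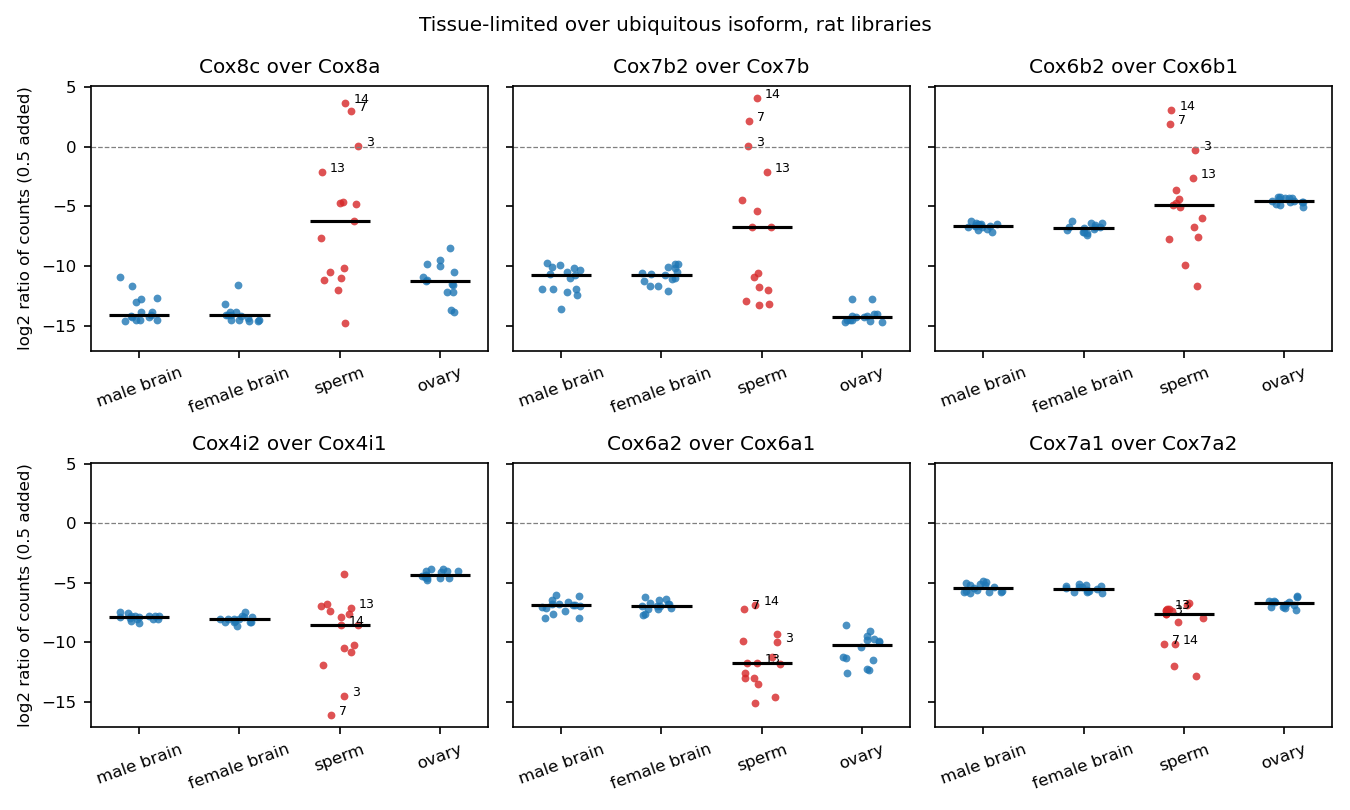
Log2 ratio of counts of the tissue-limited isoform over the ubiquitous one (0.5 added to each count) in every rat library, by group, with the group median as a bar and rats 3, 7, 13 and 14 numbered in sperm. For Cox8c, Cox7b2 and Cox6b2 the numbered sperm libraries lie far above the rest, and for Cox4i2 the 14 ovaries lie above every brain.

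The same 4 libraries also led in other transcripts of late spermatids. The mean of log2(CPM + 1) over 18 genes such as protamines, transition proteins and tail proteins was 8.43, 9.70, 6.96 and 10.2 in rats 3, 7, 13 and 14, and 2.46 to 5.45 in the other 11. In male brain it was 0.838 to 1.01, and all 16 of these genes tested were called higher in sperm, while their summed level ranged from 395 to 33300 CPM over the sperm libraries. The list of epididymal genes had a mean of 1.03 to 1.88 against 0.225 to 0.301 in male brain and a sum of 311 to 926 CPM, which rested on Aqp9 (469 CPM on average) and Spink2 (120 CPM, from 1.77 to 797). Of the 15 listed genes found in the rat, 4 were tested and all 4 called higher, while Lcn8 and Rnase10 averaged 0.0613 and 0.0427 CPM in sperm and 0.111 and 0.064 CPM in brain, and Lcn6, Lcn9, Gpx5 and Defb20 stayed below 0.1 CPM on average in both. Neutrophil genes summed to 7.06 to 80.6 CPM and squamous epithelial genes to 9.57 to 190 CPM. The part of these cell types in the isoform levels was not tested.

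**Figure D2:**
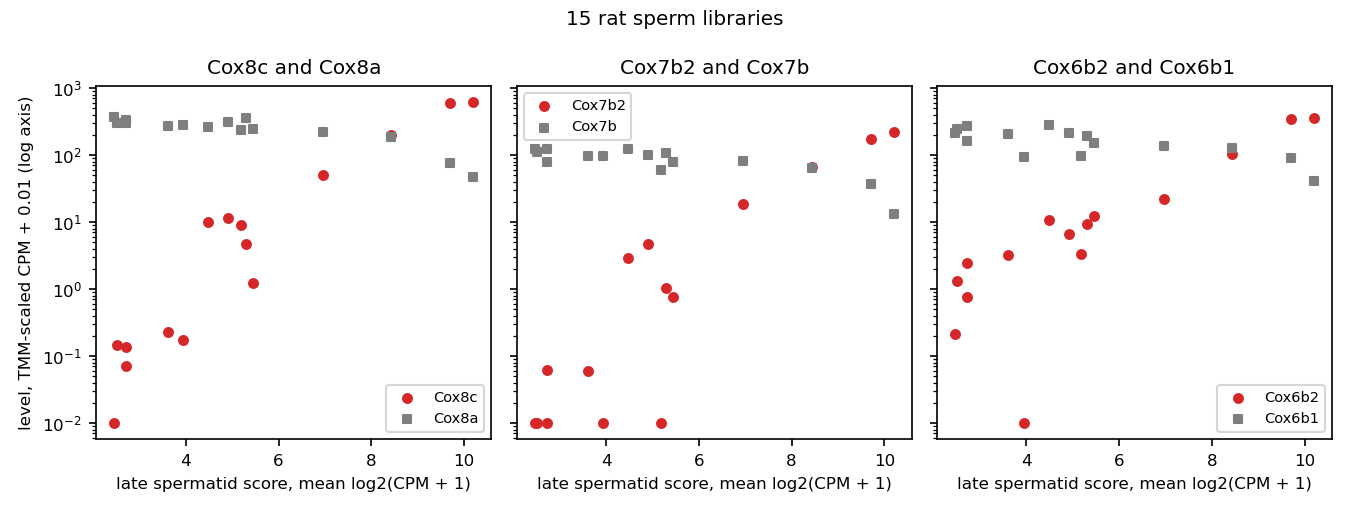
Level of each testis isoform (red) and its ubiquitous partner (grey) in the 15 rat sperm libraries, in TMM-scaled CPM with 0.01 added on a log axis, against the late spermatid score, the mean of log2(CPM + 1). Libraries at scores from 8.43 to 10.2 hold the highest testis forms and, for Cox8a, the lowest levels of the ubiquitous form.

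The muscle forms went the other way. Cox7a1 was at 0, 0.691 and 1.27 CPM in sperm (lowest, median and highest) and at 2.42, 3.71 and 6.41 CPM in male brain, so all 15 sperm libraries lay below every brain (log2 fold change -2.42 ± 0.42, edgeR adjusted p 4.55e-06). Cox8b had 12 counts over the 15 sperm libraries, at most 0.102 CPM, while male brain ran from 0.191 to 1.96 CPM (-4.77 ± 0.51, adjusted p 6.61e-10). Cox6a2 was at 0, 0.0618 and 1.31 CPM in sperm and at 0.901, 2.50 and 4.28 CPM in brain (-3.09 ± 0.64, adjusted p 7.20e-05). Every sperm library was thus below brain for the first 2 genes, and 14 of 15 for the third. Cox4i2 did not pass the test, with 0, 2.33 and 32.0 CPM in sperm and 1.42, 2.00 and 2.89 CPM in brain (1.02 ± 0.63, adjusted p 0.138), and without rats 3, 7 and 14 it passed (1.33, adjusted p 0.017). It overlaps the placeholder gene LOC134486188. Ndufa4l2, a relative of the complex IV subunit Ndufa4 known to rise in low oxygen, was at 0, 0.258 and 7.41 CPM in sperm and 2.64, 3.49 and 4.73 CPM in brain and did not pass either (adjusted p 0.109), while with the animal as a block (-3.36, adjusted p 0.00188) or without rats 3, 7 and 14 (-3.34, adjusted p 6.18e-07) it was lower.

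Across all members rat sperm differed little from brain. Of 91 tested, 7 were called higher and 5 lower. Higher calls made up 7.69% of the members against 27.7% of all 20480 genes tested, and lower calls 5.49% against 31.5%. The median log2 fold change was 0.11 for members and -0.03 for all genes, and 77 members lay within 1 of zero on the log2 scale. The groups did not overlap for 6 members that were lower in sperm (6.59%, against 24.9% of all genes), which are Cox8b, Cox7a1 and, chosen after their values were seen, Ndufv1, Ndufs4, Ndufs1 and Uqcrc2. The counts grew under other settings, to 14 of 108 lower with DESeq2 (against 27.6% of all genes) and 14 of 91 higher with voom (against 24.3%). No member had all sperm libraries above all brain libraries, as 8.61% of all genes had.

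The higher genes included accessory subunits of complex I and the inhibitor of complex V. Ndufb6, an accessory subunit of the membrane arm of complex I, was at 73.2, 264 and 440 CPM in sperm and at 54.0, 63.8 and 115 CPM in male brain (log2 fold change 2.07 ± 0.18, edgeR adjusted p 4.03e-12). Only rat 14, at 73.2, lay within the range of the brain. Atp5if1, the inhibitory factor that stops ATP synthase from running backwards, was at 136, 366 and 574 CPM in sperm against 83.6, 126 and 277 CPM in brain (1.62 ± 0.19, adjusted p 4.53e-09). The lowest value was again that of rat 14, and rats 7, 16 and 17, at 234, 190 and 275 CPM, also lay within the range of the brain. Neither gene overlaps another in the annotation. Among other members that passed, named after their values were seen, Ndufv3 had a log2 fold change of 1.57, Uqcr10 of 1.34, Ndufa9 of 1.02, and Ndufb11b, which overlaps a placeholder gene, of 4.10 at levels up to 40.6 CPM.

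Reference subunits differed in direction. Ndufs1, the largest iron-sulfur subunit of complex I, was at 33.5, 65.5 and 90.3 CPM in sperm and 101, 121 and 155 in brain, and Ndufv1, which binds NADH, at 35.6, 84.0 and 107 CPM against 146, 162 and 202. The groups did not overlap for either, but the log2 fold changes of -0.71 and -0.94 (edgeR adjusted p 5.21e-07 and 9.19e-09) stayed under the size a call needs. Other settings took them past it, with Ndufv1 at -1.22 with RLE factors and with DESeq2 and at -1.28 with library totals, and Ndufs1 at -1.05 with library totals. Sdha, the flavoprotein of complex II, had -0.15 (adjusted p 0.36), Atp5f1b, the catalytic subunit of complex V, 0.12 (adjusted p 0.349), and Uqcrc1, a core subunit of complex III, 0.23 (adjusted p 0.0847). Uqcrfs1, the Rieske iron-sulfur protein of complex III, had 0.78 (adjusted p 5.40e-05), and Atp5f1a, Cox5a and Sdhb had 0.38, 0.36 and -0.32 (adjusted p 0.00212, 0.037 and 0.00939), all under the size a call needs. Among 83 members at 10 CPM or more the lowest sperm library was rat 14 in 39, rat 16 in 21, rat 17 in 14 and rat 7 in 5. Rats 16 and 17 have the smallest sperm libraries, at 26549255 and 13714087 counts, and rats 14 and 7 have the highest late spermatid scores. The part of depth or of the state of single libraries in these values was not tested.

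The 3 genes for the c ring of ATP synthase, the rotor through which protons pass, encode the same mature protein with different import sequences. Their proportions differed between the rat tissues. Atp5mc3 made up 42.6 to 56.0% of the counts of Atp5mc3 and Atp5mc1 in sperm and 69.9 to 74.0% in male brain, with no overlap. In ovary it was 68.2 to 80.6%, which overlapped the 70.4 to 73.8% of female brain. Atp5mc2 made up 60.6 to 75.3% of Atp5mc2 and Atp5mc1 in ovary and 50.9 to 57.3% in female brain, also with no overlap. In single genes, Atp5mc1 had a log2 fold change of 0.95 ± 0.17 in sperm over brain, Atp5mc2 of 0.79 and Atp5mc3 of -0.41, and none was called. Atp5mc1 lay so near the threshold that it was called with upper quartile factors (1.02), without sperm libraries 16 and 17 (1.04) or 3, 7 and 14 (1.06), without brain libraries 1 and 4 (1.01) and with voom (1.18), which also called Atp5mc2 (1.04).

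**Figure D3:**
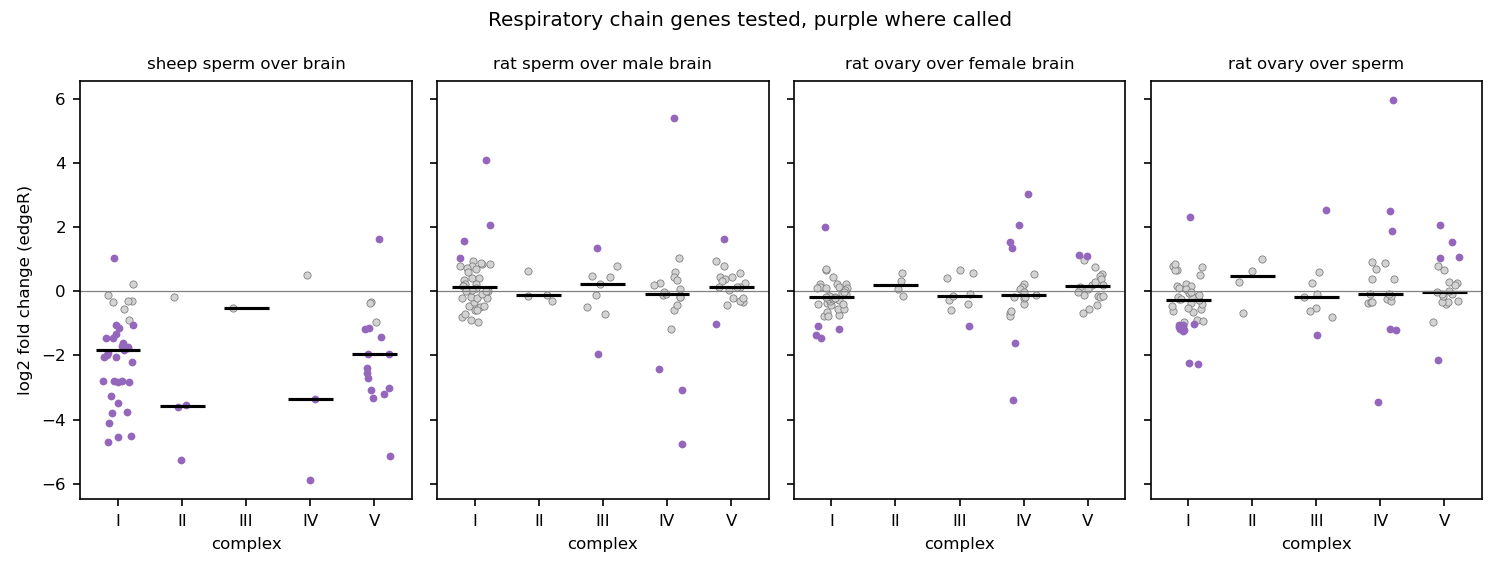
Log2 fold change of every member tested in 4 tissue comparisons, by complex, with the median as a bar and called genes in purple. In sheep sperm the medians of complexes I, II and V lie at -1.83, -3.57 and -1.94, while in the rat comparisons the medians of all complexes lie within 0.461 of zero.

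In the ovary the forms Cox4i2 and Cox6b2 stood out of complex IV. Cox4i2 was at 9.74, 14.2 and 21.6 CPM in ovary and at 1.21, 1.68 and 3.76 CPM in female brain (log2 fold change 3.03 ± 0.14, edgeR adjusted p 1.44e-18). All 14 ovaries lay above every brain. Cox6b2 was at 4.24, 6.47 and 10.3 CPM against 0.947, 1.40 and 3.74 CPM, again without overlap (2.07 ± 0.16, adjusted p 3.94e-13). Ndufa4l2 was at 4.11, 7.31 and 17.3 CPM in ovary and 2.45, 2.86 and 5.14 CPM in brain, and 9 ovaries exceeded every brain (1.52 ± 0.21, adjusted p 5.79e-08). Cox8b, at 0.0777, 0.961 and 5.76 CPM against 0.186, 0.416 and 1.07 CPM, was called higher (1.34 ± 0.47, adjusted p 0.00968) but not with the animal as a block (0.88, adjusted p 0.113). The other testis forms were close to zero, with Cox7b2 at 2 counts and Cox8c at 58 counts over the 14 ovaries.

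Muscle forms were lower in ovary. Cox7a1 was at 0.759, 1.17 and 1.89 CPM in ovary and at 2.38, 3.56 and 5.74 CPM in female brain (-1.61 ± 0.13, edgeR adjusted p 1.44e-12). Cox6a2 was at 0.0322, 0.198 and 0.691 CPM against 1.18, 2.27 and 4.50 CPM (-3.39 ± 0.34, adjusted p 1.44e-10). Neither gene overlapped between the groups. Cox4i1, the ubiquitous partner of Cox4i2, was at 237, 278 and 346 CPM in ovary and 303, 465 and 896 CPM in brain (-0.78, adjusted p 1.88e-08), below the size a call needs. Counts of Cox4i2 made up 3.51 to 6.61% of the counts of both in ovary and 0.256 to 0.577% in female brain, and Cox6b2 made up 2.98 to 5.12% with Cox6b1 against 0.585 to 1.31%.

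Of 93 members tested in ovary against female brain, 7 were called higher and 7 lower. Each is 7.53% of the members, against 27.7% of all 20801 genes higher and 29.2% lower, and the median was -0.13 for members and 0.02 for all genes. Without overlap, 3 were higher (3.23%, against 26.1%) and 7 lower (7.53%, against 27.7%). Atp5mg, which sits at the membrane part of ATP synthase, was at 366, 428 and 586 CPM in ovary and 126, 197 and 373 CPM in brain (1.13 ± 0.10, edgeR adjusted p 1.45e-11). Atp5f1e, the epsilon subunit of its stalk, was at 262, 301 and 371 CPM against 84.4, 135 and 309 CPM (1.10 ± 0.12, adjusted p 9.98e-10). For both, 1 or more brain libraries reached into the range of the ovary. Among complex I genes, Ndufb3 (20.3, 30.0 and 35.6 CPM against 46.8, 76.3 and 158), Ndufa8 (55.5, 66.0 and 77.7 against 111, 163 and 254) and Ndufb9 (67.7, 75.3 and 98.1 against 115, 179 and 340) were lower in every ovary than in any brain. Their log2 fold changes were -1.47, -1.36 and -1.18. The reference subunits of each complex showed no call, with log2 fold changes from -0.78 (Ndufs1) to 0.65 (Uqcrfs1).

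The reproductive samples were also set against each other, though sex and tissue cannot be told apart there. Of 93 members, 9 were called higher in ovary (9.68%, against 27.9% of 19611 genes) and 15 lower (16.1%, against 22.9%). The balance depends on the scaling, since with library totals 17 were higher (against 34.3% of all genes) and 5 lower (against 18.6%). Atp5if1 and Ndufb6, whose levels are given above, were lower in every ovary than in any sperm library (2 of 93 members or 2.15%, against 5.85% of all genes), with log2 fold changes of -2.13 ± 0.14 and -2.25 ± 0.15 (edgeR adjusted p 2.78e-14 and 7.18e-14). In the other direction 6 members did not overlap (6.45%, against 18.4%). Cox4i2 had 1.88 ± 0.65 (adjusted p 0.0113), Atp5mg 1.06 and Atp5f1e 1.02. Atp5mg lost its call with upper quartile factors (0.99), without the filter (0.97) and without sperm libraries 3, 7 and 14 (0.78). Atp5f1e lost it with RLE factors and DESeq2 (0.98), upper quartile factors (0.97), no filter (0.94), and without sperm libraries 16 and 17 (0.96) or 3, 7 and 14 (0.83). Cox6b2 had -3.46 ± 0.93 (adjusted p 0.0016), which fell to -0.08 (adjusted p 0.897) without sperm libraries 3, 7 and 14. This comparison shares its samples with the 2 comparisons against brain.

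Male and female rat brain were compared with no call among these genes. None of 92 members tested passed at an edgeR adjusted p below 0.05 without a minimum fold, while 0.18% of all genes (37 of 20570) were, and DESeq2 called none of the members either. At an unadjusted p below 0.05 there was 1 member (1.09%, against 9.89%). The log2 fold changes of female over male ran from -0.21 to 0.11. Cox8a, for example, was at 137, 168 and 266 CPM in males and 125, 176 and 270 CPM in females. The ribosomal share differed between the groups, with a median of 13.1% in female and 3.63% in male brain. It was highest in female 1 (94.8%) and male 4 (89.2%). Other brain libraries also had large shares, such as female 22 (59.6%), female 19 (38.7%) and male 9 (38.5%).

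In sheep sperm most subunit genes were low. Of 62 members, all of which passed the low-count filter, 2 were called higher than the mean of the 10 brain regions and 47 lower. Lower calls made up 75.8% of members against 41.1% of all 21859 genes tested, and higher calls 3.23% against 33.1%. The median log2 fold change was -1.94 for members and -0.42 for all genes. Groups did not overlap for 38 members that were lower (61.3%, against 27.4% of all genes), and for none that was higher (against 11% of all genes). The size depends on the scaling, because TMM factors were 0.124 to 0.343 in sheep sperm and 0.92 to 1.40 in sheep brain, but the median of the members lay 1.25 to 1.87 below the median of all genes with every edgeR and voom setting and 2.75 below it with DESeq2.

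All complexes with several members were affected. Complex I had 29 of 37 lower and 1 higher, complex II 3 of 4 lower and complex V 13 of 17 lower and 1 higher. NDUFA4, a subunit of complex IV, was at 2.24, 2.38, 0.896, 1.18 and 2.01 CPM in the sperm of sheep 687, 688, 690, 694 and 699, from 85 counts in all, and at 59.8 to 188 CPM in the 50 brain libraries (log2 fold change -5.88 ± 0.26, edgeR adjusted p 2.09e-26). SDHA was at 1.99, 3.24, 1.79, 2.96 and 4.23 CPM against 85.2 to 187 (-5.24 ± 0.21, adjusted p 2.51e-28). ATP5MC1 was at 2.48, 0.288, 0.598, 4.24 and 1.16 CPM against 40.4 to 129 (-5.12 ± 0.34, adjusted p 2.28e-19). For these 3 genes every sperm library lay under the lowest brain library, and for ATP5MC1 the sperm libraries also differed widely among themselves. The other reference subunits fell too, from -4.69 for NDUFS1 to -1.94 for ATP5IF1.

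Not all subunits went down. SDHC, a membrane anchor of complex II named after its values were seen, was at 13.9, 44.4, 41.5, 9.18 and 25.4 CPM in the 5 sheep and 25.7 to 48.7 CPM in brain (-0.18, edgeR adjusted p 0.297). ATP5ME, a small subunit of the membrane part of ATP synthase, was at 213, 59.5, 137, 70.0 and 222 CPM in sperm against 29.8, 45.7 and 99.8 CPM in brain (1.64 ± 0.18, adjusted p 1.01e-11). NDUFB7, an accessory subunit of complex I, was at 65.1, 42.9, 24.5, 20.4 and 69.7 CPM against 14.9, 22.1 and 47.3 CPM (1.05 ± 0.17, adjusted p 3.13e-07). Sheep 687 and 699 were above every brain library for both genes and the others overlapped, except 690 for ATP5ME. With library totals in place of TMM factors both were lower in sperm, with -0.98 and -1.53, so their direction depends on the scaling. Leaving out sheep 687 or 699 took NDUFB7 to 0.89 or 0.87, the animal as a block to 1.00 and no filter to 0.91, all under the size a call needs, and with voom it missed the p threshold as well (0.76, adjusted p 0.158).

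**Figure D4:**
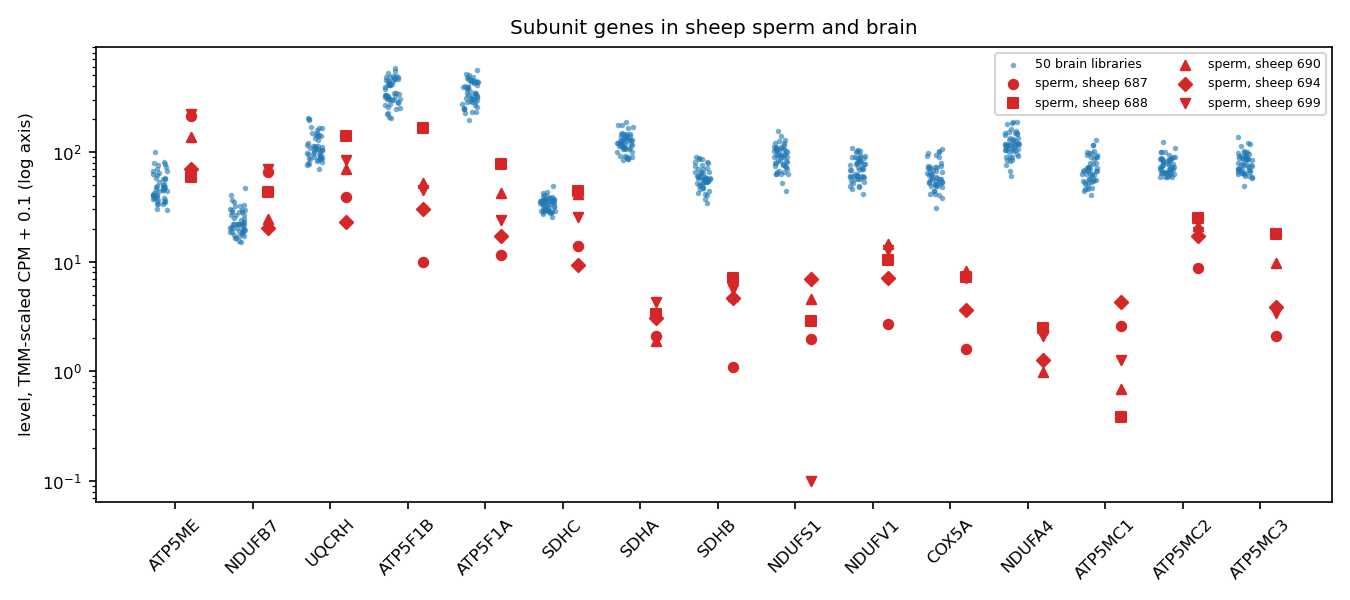
Level of 15 subunit genes in the 50 sheep brain libraries (blue) and the 5 sperm libraries (red, 1 symbol per sheep), in TMM-scaled CPM with 0.1 added on a log axis. ATP5ME and NDUFB7 in sperm reach above brain, SDHC and UQCRH overlap it, and SDHA, NDUFA4 and ATP5MC1 lie below it in all 5 sheep.

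Individual sheep differed in what else their sperm libraries held. The late spermatid score was 7.13, 2.56, 5.01, 4.76 and 7.18 in sheep 687, 688, 690, 694 and 699. Squamous epithelial genes had a score of 6.37 to 10.7 and a sum of 8610 to 173000 CPM, and neutrophil genes a score of 5.36 to 8.56 and a sum of 12800 to 141000 CPM, with sheep 688 highest in both. All 17 spermatid, 9 squamous and 7 neutrophil genes tested were called higher than in brain. Of the 62 members 37 had their highest sperm level in sheep 688, 13 in 699, 5 in 694, 4 in 690 and 3 in 687. ATP5F1B, for example, was at 9.94, 167, 51.7, 30.4 and 44.8 CPM, against 204 to 588 CPM in brain. Without sheep 688 the median log2 fold change of the members was -2.28. The part of each cell type in these levels was not tested.

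In the c ring of sheep sperm ATP5MC2 took the larger share. It made up 77.8, 98.9, 97.3, 80.0 and 94.1% of the counts of ATP5MC2 and ATP5MC1 in the 5 sheep, and 41.5 to 66.8% in the brain libraries. The groups did not overlap, and the share rested on 80 counts of ATP5MC1 in all sperm libraries together. NDUFA4L2 had 0 counts in sheep 687 and 690 and was at 8.57, 1.48 and 3.28 CPM in 688, 694 and 699, against 0.71 to 4.95 CPM in brain, and was not called (0.51, edgeR adjusted p 0.186). Its direction turned with the scaling, from 1.05 with upper quartile factors (adjusted p 0.00393) to -1.79 with library totals (adjusted p 0.000303).

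The sheep brain regions differed by small amounts. An F test over the 10 regions called 48 of 62 members, which is 77.4% against 76.7% of 21147 genes, so the members changed with region about as often as genes in general. The count was 21 without sheep 694, a fit whose share of all genes is not given here. The highest region mean of a member was 1.14 to 2.14 times its lowest, with a median of 1.60, and no member differed by 1 or more on the log2 scale from the other regions. The motor cortex held the highest mean of 41 members, while the lowest mean was in the hippocampus for 33, in the pons for 18 and in the entorhinal cortex for 10. Medians of the log2 difference from the other 9 regions were 0.33 in MC, 0.20 in FC, 0.13 in BG, 0.12 in PPC and 0.10 in PC, 0.02 in CB and -0.05 in VC, and -0.27 in pons and in EC and -0.32 in HC.

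The hippocampus had more low members than the background. At an adjusted p below 0.05 with no minimum fold, 11 members were lower there (17.7%, against 3.83% of all genes) and none higher (against 7.15%). NDUFB9, an accessory subunit of complex I, was at 39.1, 38.3, 33.9, 34.8 and 33.2 CPM in the hippocampus of the 5 sheep against 32.1, 52.3 and 97.2 CPM over all brain libraries (log2 difference -0.59 ± 0.16, edgeR adjusted p 0.0103), and without sheep 690 it missed the threshold (adjusted p 0.0651). ATP5MG was at 88.6, 95.3, 83.5, 81.7 and 77.2 CPM there against 69.2, 114 and 164 (-0.41 ± 0.10, adjusted p 0.00588). All 5 animals were below the brain median for both genes. The count of 11 was 2 without sheep 690 or 694, 4 without 699, 7 without 687 and 8 without 688, where 1.37 to 4.00% of all genes were lower. It was 19 with the animal as a block (against 5.04%), 22 with DESeq2 (against 3.76%) and 2 with library totals (against 1.59%).

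In the pons 16 members were lower (25.8%, against 22.6%), and none was higher (against 25.7%). NDUFC1, an accessory subunit of complex I, was at 53.6, 52.8, 48.6, 48.7 and 42.9 CPM there, and 49.3 ± 4.27 CPM (SD, n = 5) on average, while the other regions averaged 66.7 to 83.8 CPM (-0.55 ± 0.07, edgeR adjusted p 4.45e-08). NDUFA5, of the same complex, was at 33.5, 25.9, 32.0, 31.9 and 23.5 CPM against means of 37.4 to 51.2 (-0.55 ± 0.11, adjusted p 6.86e-05). Every pons lay under the mean of each other region for both genes. The pons also had the lowest mean neuronal score of all regions, 6.94, with 7.41 in BG and 8.36 to 8.82 elsewhere, and the highest oligodendrocyte score, 9.60 against 6.50 to 7.91. The part of cell composition was not tested.

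The cerebellum had 8 members higher (12.9%, against 29.1%) and 2 lower (3.23%, against 31.6%). UQCRH, the hinge protein of complex III that binds cytochrome c1, was at 144, 199, 164, 148 and 205 CPM there, with a mean of 172 ± 28.5 (SD, n = 5), and other regions averaged 87.4 to 133 CPM (0.66 ± 0.13, edgeR adjusted p 4.02e-05). ATP5F1C, the shaft of ATP synthase, was at 108, 114, 105, 112 and 126 CPM against means of 74.9 to 102 (0.37 ± 0.08, adjusted p 0.000178). All 5 cerebella were above the mean of every other region. With library totals 31 of 62 members were higher in the cerebellum (against 40.1% of all genes) and none lower (against 24.1%).

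Other regions gave few calls. The basal ganglia had 2 higher (3.23%, against 14.6%). NDUFB4 was at 36.6, 30.6, 27.0, 48.6 and 57.1 CPM there, against a brain median of 24.2 (0.70 ± 0.16, edgeR adjusted p 0.000782), and NDUFB5 had 0.25 (adjusted p 0.0366), a call lost without any of sheep 687, 690, 694 and 699. Without sheep 688 the count in BG was 9, where 14.5% of all genes were called higher. The entorhinal cortex had 1 lower (1.61%, against 0.161%), ATP5MG (-0.38, adjusted p 0.0246), lost without any sheep but 688, and the posterior parietal cortex 1 higher (1.61%, against 7.99%), NDUFC1 (0.27, adjusted p 0.00809), lost without sheep 687. In the motor cortex 3 were higher (4.84%, against 2.93%). NDUFA9 was at 42.2, 46.5, 40.5, 62.1 and 61.1 CPM there (0.46, adjusted p 0.0173), and NDUFB5 at 43.4, 45.5, 41.1, 54.9 and 49.8 CPM (0.34, adjusted p 0.022). Sheep 694 and 699 were the highest for both, and without either of them no member was called in the motor cortex. The frontal, prefrontal and visual cortex had no call, where 7.85, 6.31 and 5.65% of all genes were called in either direction.

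The frontal and motor cortex changed places between animals. The summed level of the 62 members was highest in FC in sheep 687, 688 and 690, at 5513, 5654 and 4742 CPM, where MC had 4115, 4396 and 4035. In sheep 694 and 699 MC was highest, at 5863 and 5960 CPM, and FC had 4065 and 3140. ATP5MG showed the same, with 157, 164, 131, 128 and 91.4 CPM in FC and 93.8, 132, 119, 163 and 151 CPM in MC. Without sheep 699 the frontal cortex had 20 of 62 members called higher, where 7.60% of all genes were in the same fit. In each of the 5 sheep the lowest sum was in EC or pons.

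**Figure D5:**
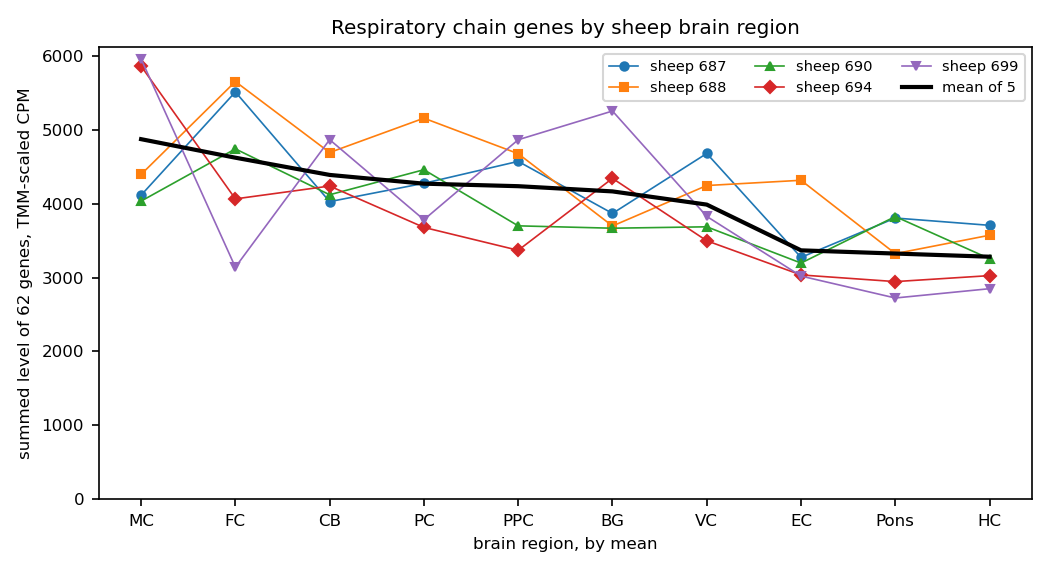
Summed level of the 62 sheep members, in TMM-scaled CPM, in the 10 brain regions of each sheep (thin lines) with the mean of 5 (thick line), ordered by that mean. FC is highest in sheep 687, 688 and 690 and MC in 694 and 699, while EC, pons and HC are low on average.

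Genes that work with the respiratory chain were counted in the same way, from lists of assembly factors, tricarboxylic acid cycle enzymes, mitochondrial carriers with their germ-cell counterparts, and regulators, and the genes named from them were chosen after their values were seen. In sheep sperm 20 of 29 assembly factors, 16 of 17 cycle enzymes, 7 of 9 carriers and 11 of 13 regulators were lower, where 41.1% of all genes were. Pyruvate carboxylase (PC), which feeds the cycle, was the enzyme that was higher, at 158 against 44.2 CPM on average (log2 fold change 2.02, edgeR adjusted p 1.12e-13). The carrier-list gene that was higher was PDHA2, the testis form of a pyruvate dehydrogenase subunit, at 6.56 CPM on average in sperm, while its somatic form PDHA1 was at 0.203 against 8.82 CPM. In rat sperm 7 of 53 assembly factors were higher and 4 lower, 1 of 17 cycle enzymes higher and 4 lower, and 3 of 8 carrier genes tested were lower, where 27.7% of all genes were higher and 31.5% lower. Pc was higher there too, at 250 against 76.1 CPM (1.81, adjusted p 1.48e-10). Slc25a4, the heart form of the ADP/ATP carrier, was at 80.9 against 636 CPM (-2.88, adjusted p 3.45e-13), and Ppargc1a, a master coactivator of mitochondrial genes, at 2.65 against 37.7 CPM (-3.74, adjusted p 8.29e-14). In ovary 4 of 53 assembly factors were higher and 7 lower, where 27.7% of all genes were higher and 29.2% lower. Ppargc1a was at 2.52 against 39.3 CPM there (-3.95, adjusted p 4.63e-24), and Gabpa, which encodes a subunit of the GA-binding protein, at 51.0 against 19.6 CPM (1.39, adjusted p 2.59e-24).

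Of the 111 rat members, 3 had no count in any library and 17 stayed under 1 CPM in the mean of every group. One of the first, Ndufb2, an accessory subunit of complex I, lies inside the span of Braf (chromosome 4, 69334307 to 69341394 for Ndufb2). In sheep NDUFB2 was at 79.4 to 128 CPM in brain. In the rat annotation 70 of the 111 overlap no other gene, and values of members with near-identical copies, such as Ndufb4l3, are uncertain because the treatment of reads with more than 1 alignment is not given in the sources used here.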

How the data were processed

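Messenger RNA was sequenced from 113 libraries of sheep and rat brain, sperm and ovary. The deposited values are raw read counts per gene, which the authors made from trimmed paired reads; the submitters' processing notes name Trimmomatic v0.39, STAR v2.7.5a, Rsubread v2.20.0 and DESeq2, and the builds GRCr8 and ARS-UI_Ramb_v3.0. The strand setting of the counting is not given in the sources used here. The members and the gene lists were chosen with earlier results of these data known.

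From the counts, genes were filtered with filterByExpr and tested over the whole table with the quasi-likelihood test of edgeR 4.0.16 (R 4.3.3, TMM factors, prior count 0.125), with Benjamini-Hochberg adjustment over all genes tested. Tissue calls need an adjusted p under 0.05 with a change of 1 or more on the log2 scale, and calls between sheep regions or sexes the adjusted p alone. The contrast for sheep sperm is with the average over 10 regions, and that for a region with the average over the other 9. Ratios of isoforms had 0.5 added to each count. Alternatives were other scaling factors, no filter, DESeq2 1.42.0, limma 3.58.1 with voom and quality weights, the animal as a block, and libraries left out. The scripts were tested on simulated data.

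The same numbers mark the same animals, since each gave brain and reproductive samples. The median correlation of deviations between samples of 1 animal was 0.0545 for rat sperm and brain, 0.00371 for ovary and brain and 0.185 between sheep regions.

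Genes named were the tissue-limited and ubiquitous isoforms, the c-ring genes, 10 reference subunits, for each tissue comparison the 3 called members per direction with the largest change at 10 CPM or more in the higher group, and for each region the 2 called members with the smallest p. Others are marked as chosen after their values were seen. Depth limits the low genes, and the floor was set at 3 counts over the pooled counts of a group. Values of single libraries can rest on fewer counts. Promoters came from RefSeq (GRCr8), with 95 of 111 rat members matched.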

Additional observations from a re-analysis of the deposited data

Results flagged for a closer look

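In the sperm of the 5 sheep, ATP5F1B was far higher in sheep 688 than in the others. Its gap to the next sheep, taken on CPM without logarithms, was 0.735 of the range of the group. The limit of Dixon's test for 5 samples is 0.71. ATP5MG in the entorhinal cortex was also far higher in sheep 688, with a gap of 0.719 of the range. That limit assumes normally spread values and a group fixed beforehand. These groups were flagged because of their gaps, so the limit serves as a guide and not as a test. Other members stood apart in sheep 688 as well, such as ATP5F1C in sperm, at 228 CPM with 29.9 CPM in the next sheep.

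ATP5IF1 and NDUFB6 moved in opposite directions in the sperm of the 2 species. Per animal, sperm minus brain on the log2(CPM + 0.5) scale averaged -2.1 for ATP5IF1 in sheep, from -2.89 to -1.69, and 1.48 in rats, from 0.463 to 2.51. For NDUFB6 it averaged -3.71 in sheep, from -4.48 to -2.89, and 1.87 in rats, from 0.415 to 2.98. All 5 sheep were below 0 and all 15 rats above it for both genes. The difference between species was not tested, and species and library kit cannot be told apart.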

How the results depend on the processing

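Over all alternatives, 98 counts and summary values kept their size within 1.5 times and 18 did not, and of the values of single genes 985 kept their call, 25 gained one, 40 lost one and 5 reversed. In sheep sperm the members called higher numbered 4 with upper quartile factors (against 40.7% of all genes) and 0 with library totals (against 14.9%). There was 1 without the filter (against 36.5%), 1 with the animal as a block (against 32.6%) and 1 with voom (against 22.1%). With a sheep left out there were 1 to 2 (against 31.4 to 33.3%). In rat sperm the members called lower numbered 8 of 91 with RLE factors (against 34.8%) and 10 of 91 with library totals (against 36%). Without the filter 108 members were tested, with 10 lower (against 25.6%) and 11 higher (against 36.6%). DESeq2 called 14 of 108 lower (against 27.6%), and voom called 14 of 91 higher (against 24.3%). In ovary against brain 4 were lower with library totals (against 25.6%). In ovary against sperm 17 were higher (against 34.3%) and 5 lower (against 18.6%) with library totals. Between regions 21 to 51 members passed with a sheep left out and 32 with upper quartile factors. The share of all genes in these region fits is not given here. NRF1 with 1 mismatch stood in 40.8% of member promoters. Reversed were NDUFA4L2 (-1.79), ATP5ME (-0.98) and NDUFB7 (-1.53) in sheep sperm with library totals, and Cox6b2 (1.26) and Cox6a2 (1.66) in ovary against sperm with voom. The cause was not tested. With the animal as a replicate block 48 sheep members were lower in sperm (against 41.8% of all genes). Rat sperm had 5 higher (against 21.4%) and 6 lower (against 36.8%). Ovary against brain had 6 higher (against 27.3%) and 7 lower (against 29.6%). Between regions 51 passed, again without a share of all genes. No named call changed with the block beside those of NDUFB7, Cox6b2, Ndufa4l2 and Cox8b. The settings without rat sperm libraries 3, 7 and 14 and without brain libraries 1 and 4 were chosen after seeing the data.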
